A study of Mus musculus with 1087 samples.

Results

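Cluster 11 (29 cells) and cluster 10 (52 cells) are 81 single cells of the 1087 in this series of mouse embryonic aorta. They were taken as the authors numbered them, from the class called HC2 in the clustering that leaves out CD27+ cells; the other 43 cells of HC2 are cluster 9. Every cell came from the aorta-gonad-mesonephros (AGM) region, taken with the trunk of the vitelline and umbilical arteries and dissociated with collagenase. The embryos were Gata2V/+, that is, they had 1 wild-type Gata2 allele and 1 allele linked to the Venus fluorescent protein, from C57BL/6HsdJOla mothers and Gata2V/V fathers backcrossed to that strain. Cells were stained for CD31, cKit and CD27, and their names call all of them KitHi. The groups that hold members are E10 G2VInt (intermediate Venus; 1 cell of cluster 11 and 2 of cluster 10), E11 G2VInt (9 and 20), E11.5 G2VInt (13 and 23) and E11.5 G2VLo (low Venus; 6 and 7). The E11.5 CD27+ cells were not part of this clustering.

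Red cells and mast cells are both made from Kit-positive progenitors, and both lineages use GATA factors. In the erythroid lineage GATA1 works with KLF1, TAL1 and LMO2 to turn on the genes for the membrane skeleton, heme and hemoglobin, while GATA2 is shut off; the receptor for erythropoietin then keeps the cells alive and dividing. Mast cells and basophils keep GATA2 together with GATA1 and fill granules with proteases, heparin and histamine, which are released through the high-affinity IgE receptor. KIT, the receptor for stem cell factor, is lost late in red cell maturation but is kept for life by mast cells.

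Cluster 11 was 35.8% of the cells of both clusters (Clopper-Pearson 95% interval 25.45 to 47.23). Its share was 31.03% at E11 (15.3 to 50.8), 36.1% in E11.5 G2VInt (20.8 to 53.8) and 46.15% in E11.5 G2VLo (19.2 to 74.9). These intervals overlap widely, but they take cells as independent and cover no spread between embryos or sorts. Whether the share differs between the groups was not tested. Reads per cell had a median of 2000620 in cluster 11 (388354 to 3960654) and 1285362 in cluster 10 (301490 to 3562854). At an equal 100000 reads per cell, a median of 7261.5 genes had a read in cluster 11 and 7207 in cluster 10 in G2VLo. The G2VLo cells were the shallowest, with medians of 541032 and 584306 reads, and had the most mitochondrial reads, 6.44% and 8.62% against 3.21% and 3.65% in E11.5 G2VInt. The sources name no embryo, litter or sorting day for any cell, so a sorted group counts as a single sample and nothing was tested between the clusters. The clusters were also drawn from these same expression values, so every difference below describes them and is no evidence for them. Reads of a cluster were summed over its cells (54051744 and 77453906 reads) and are given as CPM (reads of a gene scaled to the same total in both); a ratio is that of cluster 11 over cluster 10.

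The 3 sequences that follow are stretches in front of genes that the account turns on. They are Pklr and Epor, both higher in cluster 11, and Cpa3, the measured granule gene with the largest ratio, though not the highest level, in cluster 10. Each is the 250 bases before a start site in RefSeq (GRCm38.p6), 5′ to 3′ on the strand of the gene, and capitals mark matches to AGATAA (the core of a GATA site) or CCNCNCCC (the CACC type that KLF1 binds), searched on both strands. They lie at chr3:89135892-89136141 (plus strand), chr9:21963577-21963826 (minus strand) and chr3:20242182-20242431 (minus strand).

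Pklr: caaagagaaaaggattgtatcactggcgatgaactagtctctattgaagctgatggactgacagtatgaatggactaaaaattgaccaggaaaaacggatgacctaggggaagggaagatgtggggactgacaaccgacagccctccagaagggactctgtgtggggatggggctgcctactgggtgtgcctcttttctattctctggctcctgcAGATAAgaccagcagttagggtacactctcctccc

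Epor: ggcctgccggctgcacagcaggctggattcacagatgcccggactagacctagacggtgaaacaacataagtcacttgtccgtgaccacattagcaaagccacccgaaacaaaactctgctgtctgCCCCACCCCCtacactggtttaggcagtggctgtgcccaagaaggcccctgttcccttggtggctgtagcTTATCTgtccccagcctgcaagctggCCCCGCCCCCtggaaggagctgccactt

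Cpa3: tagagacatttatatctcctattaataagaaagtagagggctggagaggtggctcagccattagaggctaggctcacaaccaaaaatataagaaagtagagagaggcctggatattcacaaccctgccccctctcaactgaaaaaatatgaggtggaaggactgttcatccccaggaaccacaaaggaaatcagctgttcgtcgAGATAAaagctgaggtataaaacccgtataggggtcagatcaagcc

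All of them hold 1 match to AGATAA or its reverse complement TTATCT close to the start: 35 to 30 bases before it in Pklr, 54 to 49 in Epor and 46 to 41 in Cpa3. The Epor stretch also has 2 pairs of overlapping CACC matches, the nearer one between 28 and 19 bases before the start. The same motif thus stands in front of a gene of either cluster, but these stretches are a selection from those searched. The stretches before Ermap, Tspo2, Gata1, Klf1, Hdc, Gata2 and a second start of Pklr held no match to AGATAA. Those before Il1rl1 did. Among all 32851 RefSeq promoters of this length, 9.99% hold AGATAA and 45.9% CCNCNCCC. For genes with the same direction in every sorted group (defined below), AGATAA was found in 20 promoters of genes higher in cluster 11 (7.55%) and in 65 of 823 of those lower (7.90%), against 5.64% for all measured genes. CCNCNCCC was found in 67.2% and 66.8%, against 63.9%. The motif GAGGAAGT (the type bound by the leukocyte factor PU.1) was found in 2.64% and 4.25%, against 2.45%. A match is a string of letters and not a shown binding site.

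The 5 markers given for cluster 11 all had far more reads in it than in cluster 10. Ermap, a red cell surface protein of the butyrophilin kind that carries the Scianna blood group (ENSMUSG00000028644, chromosome 4, 119175457 to 119190011, minus strand, GRCm38), ran from 27.6 to 644 CPM per cell in the 13 E11.5 G2VInt cells of cluster 11, with a median of 246.1. In the 9 cells of E11 it ran from 0 to 464.01 (median 168.7), and in the 6 of G2VLo from 10.7 to 375.9 (median 217.6). In cluster 10 the median was 0 in all 3 groups, with a highest value of 275.5 in E11.5 G2VInt, 542 in E11 and 0 in G2VLo. The ranges therefore overlap through a few cells of cluster 10, and only 2 cells of cluster 11 lay above every cell of cluster 10. The cells of cluster 10 with these highest values in E11.5 G2VInt and E11 were put in cluster 11 by the authors' clustering of all cells. Summed, Ermap had 232.98 CPM (Poisson 95% interval 228.9 to 237.1) against 20.9 (19.9 to 21.95), an 11.15-fold ratio. At equal depth 89.7% of cluster 11 cells and 13.5% of cluster 10 cells had an Ermap read, against 5.88% and 3.70% in endothelial clusters 1 and 2 of E11.5 G2VInt, which stand here for cells that should lack it.

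Ank1, the ankyrin that ties the spectrin skeleton to the membrane (ENSMUSG00000031543, chromosome 8, 22974844 to 23150497, plus strand), separated the clusters best of these genes. It had a read in 26 of 29 cells of cluster 11, up to 97.6 CPM, and in 4 of 52 cells of cluster 10, up to 5.68. In sum it had 27.97 CPM against 0.0646, from 1512 and 5 reads. Tspo2, a cholesterol-binding protein of the erythroblast (ENSMUSG00000023995, chromosome 17, 48447907 to 48451522, minus strand), had reads in 19 and 4 cells, with 49.1 and 0.852 CPM. Of the 66 Tspo2 reads of cluster 10, 95.45% came from a single cell. Pklr, the pyruvate kinase of liver and red cells (ENSMUSG00000041237, chromosome 3, 89136142 to 89146784, plus strand), had reads in 18 and 3 cells, with 23.2 and 0.710 CPM. Cldn13, a claudin of erythroid cells (ENSMUSG00000008843, chromosome 5, 134914249 to 134915526, minus strand), had reads in 12 of 29 cells of cluster 11, up to 92.9 CPM, and none in cluster 10. With 3 reads over the whole of cluster 10 in place of 0, its 16.7 CPM in cluster 11 were at least 430.4-fold higher. Tspo2, Pklr and Cldn13 were thus without a read in part of cluster 11 as well. Its median cell had 0 CPM of Cldn13, 7.56 of Pklr, 13.6 of Ank1, 18.02 of Tspo2 and 220.3 of Ermap.

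**Figure D1:**
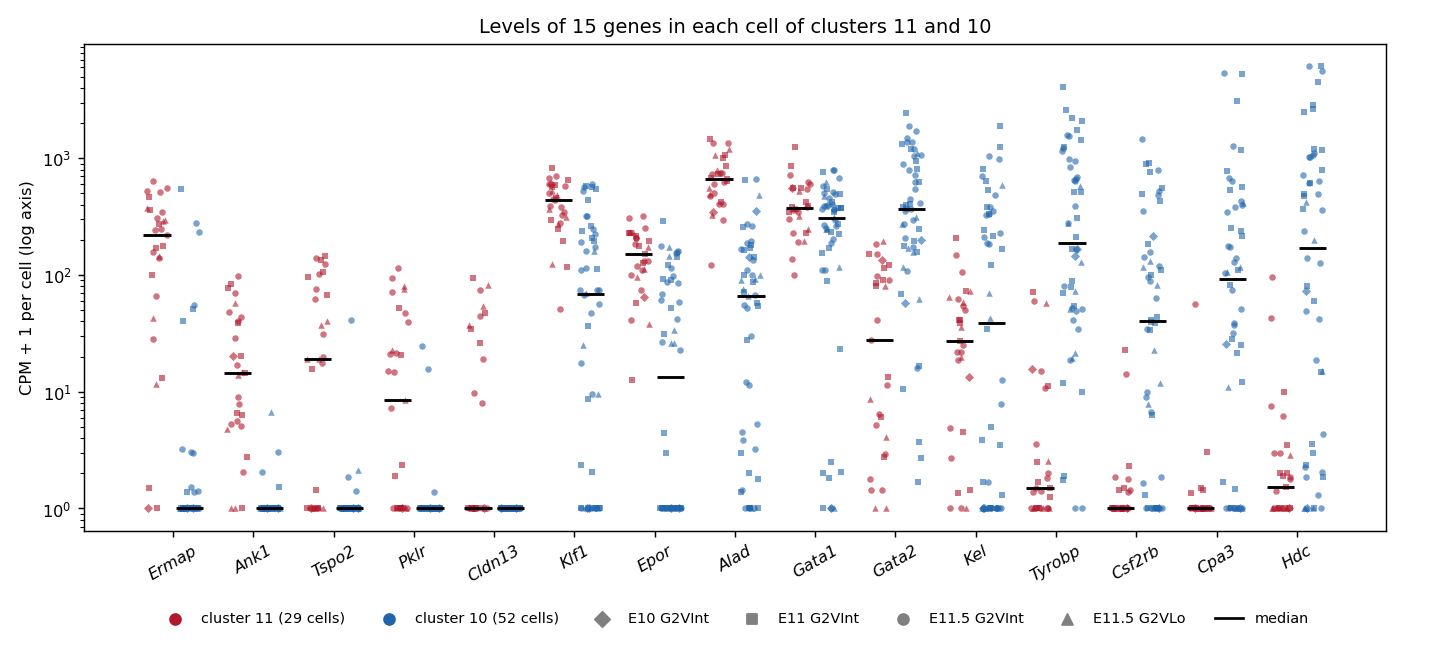
Each point is 1 cell of cluster 11 (red) or cluster 10 (blue), its shape the sorted group, its height CPM + 1 on a log axis for 15 genes, and black bars are medians over the cluster. The 5 markers at the left sit at 0 CPM in most cells of cluster 10, Gata1 overlaps between the clusters, and Gata2, Tyrobp, Csf2rb, Cpa3 and Hdc are higher in cluster 10.

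The names of the clusters were set beside 12 erythroid markers, which include the 5 given, and 12 mast cell and basophil markers. Since the clusters were drawn from these values, this describes what the names rest on. At equal depth cells of cluster 11 had a read of 4 to 11 erythroid markers (median 8), and of 3 to 6 of the 7 that are not among the 5 given, and the summed CPM per cell was 712 to 2587, against 0 to 1842 in cluster 10 and 0 to 170 in cluster 9. Slc4a1, the anion exchanger band 3 and a defining protein of the mature red cell, had 0 reads in both clusters. Of the 12 mast cell and basophil markers, cells of cluster 10 had 0 to 5 (median 3), and Fcer1a (the IgE receptor's alpha chain) and the proteases Mcpt8, Tpsb2 and Prss34 had no read. The chymase Cma1 had 2.69 CPM. Gzmb (57.2 CPM) and Ms4a2, the beta chain of the IgE receptor (22.1 CPM), came mostly from 1 cell each, which held 94.5% and 89.2% of the reads. The name mast-like therefore rests on Cpa3, Hdc, Slc18a2 and Il1rl1. The mast marker sum per cell was 0 to 12717 CPM in cluster 10 and 0 to 100.6 in cluster 11.

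In cluster 10, 18 of 52 cells had a read of 3 or more markers of both lists, 19 of only the mast cell list, 9 of only the erythroid list and 6 of neither. All 29 cells of cluster 11 had 3 or more of only the erythroid list. The erythroid count of the 18 cells rested mostly on Gata1 (read in 18), Klf1 (16) and Epor (16), of which Gata1 is also a gene of mast cells. A read of any erythroid marker other than these 3 was found in 11 of the 18. Only 3 of the 18 had a read of Ermap, 1 of Pklr and 0 of Ank1, Tspo2 or Cldn13, and 8 of the 18 still had 3 or more erythroid markers without Gata1. Cells with both were 13 of 23 in E11.5 G2VInt, 4 of 20 in E11 and 1 of 7 in G2VLo. Cluster 9 had 0 such cells among 43, 8 with only the mast list and 35 with neither. In the endothelial clusters 1 and 2 of E11.5 G2VInt, 1 of 68 and 2 of 54 cells had 3 or more erythroid markers. No caller of doublets was run, and whether some of these cells are pairs was not tested.

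**Figure D2:**
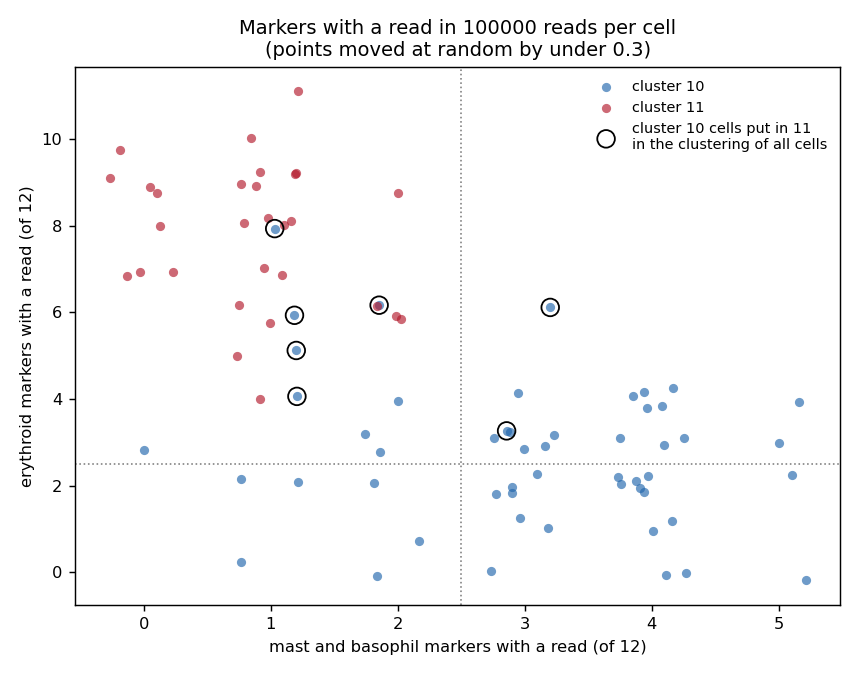
Each point is 1 cell, placed by the number of the 12 mast and basophil markers (horizontal) and the 12 erythroid markers (vertical) with a read among 100000 reads. Dotted lines mark 3 markers; no red point lies right of the vertical line, 18 blue points lie in the upper right field, and rings mark the 7 cells of cluster 10 that the other clustering put in cluster 11.

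Of 9359 genes measured (at least 10 CPM in 1 cluster and a read in 20% of the thinned cells of the higher one), 498 were at least 2-fold higher in cluster 11 (5.32%) and 1234 at least 2-fold lower (13.2%). Within E11.5 G2VInt alone 667 of 9343 were higher (7.14%) and 1415 lower (15.1%). In each of the 3 sorted groups with enough cells, 1.53% were higher and 559 (5.97%) lower. Since the clusters were drawn from these genes, the shares are a scale for the lists below and no more. The median log2 ratio over all measured genes was 0.02. The erythroid membrane and surface list had a median of 2.58, which fell to 0.67 where 50 CPM were asked for, and 11 of its 15 genes at least 2-fold higher had under 10 CPM in cluster 10 and so were measured only through cluster 11. The medians of mast cell granule (-2.87), macrophage (-3.18, 3 genes) and lymphoid genes (-3.17, 5 genes) were the lowest of lists with 3 or more measured genes. The same limit bears on lists lower in cluster 11. Cpa3, Hdc, Csf2rb, Il1rl1, Ptprc and Cd34, for example, had under 10 CPM in cluster 11 and so were measured only through cluster 10. Such genes could only come out lower. Some genes stand in more than 1 list.

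**Figure D3:**
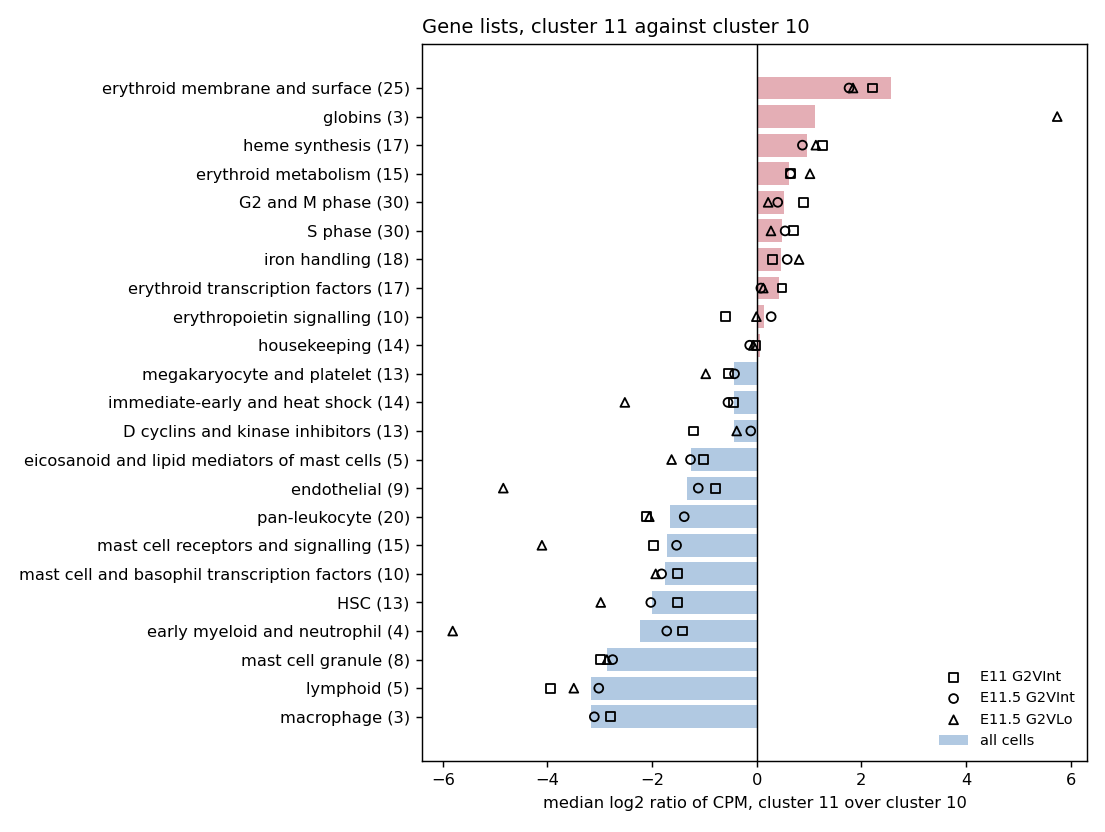
Bars give the median log2 ratio of CPM (cluster 11 over cluster 10) of the measured genes of each list over all cells, with the number of genes in brackets, and open symbols give it within each sorted group where 3 or more genes were measured. The erythroid membrane list lies right of 0 in all 3 groups (1.76 to 2.22) and the mast granule list left of it (-2.98 to -2.75).

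Erythroid transcription factors differed gene by gene. Of 17 measured, 5 were at least 2-fold higher in cluster 11 and 1 lower (median 0.42). Lmo2, the bridge between GATA1 and TAL1, had 597 CPM against 93.98. Its lowest cell in cluster 11 had 279.8 CPM, while the median cell of cluster 10 had 3.89, and 12 of 29 cells lay above all of cluster 10. Klf1 had 452.4 against 158.3 CPM and was read in all 29 cells of cluster 11 (49.8 to 818 CPM) and 37 of 52 of cluster 10 (0 to 597). In contrast it had 0.218 CPM in cluster 9. Gfi1b, a repressor required for red cells (253.4 and 112.9), Bcl11a, the repressor of fetal globin (185.01 and 76.4), and E2f2 (28.6 and 8.90) were higher too. Cited2, a transcriptional coregulator, was lower (21.5 and 67.5). Nfe2 (265.4 and 267.6), Zfpm1, the GATA1 partner FOG1 (50.4 and 49.3), and Ldb1 (64.1 and 71.1) were nearly level.

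Gata1 was read in nearly all cells of both clusters at similar levels, while Gata2 was 9.99-fold lower in cluster 11. Gata1 had 433.8 CPM against 325.2, and 99.9 to 1259 per cell (median 376.9) against 0 to 793 (median 304.5), with wide overlap. Its order turned between sorted groups, at 528 and 260 CPM in E11 but 357.5 and 409.02 in E11.5 G2VInt. Gata2 (ENSMUSG00000015053, chromosome 6, 88193891 to 88207032, plus strand), the gene linked to the reporter, had 61.996 CPM (59.9 to 64.1) against 619 (614 to 624.9). It had a median of 10.496 CPM per cell in cluster 11 against 620.3 in cluster 10 in E11.5 G2VInt, 84.3 against 308.01 in E11 and 5.395 against 170 in G2VLo. No cell of cluster 11 exceeded 192.8 CPM, while 36 of 52 cells of cluster 10 did. Cells were sorted on Venus linked to this gene, so cells of both clusters had passed the same Venus gate within each group. Per length, Gata1 and Gata2 stood at 177.95 and 11.48 RPKM in cluster 11 and at 133.4 and 114.7 RPKM in cluster 10. All 29 cells of cluster 11 had more reads of Gata1 than of Gata2, as did 18 of 52 in cluster 10, where 34 had more of Gata2. Both genes had a read in 42 cells of cluster 10 at equal depth. Kit, on which all cells were sorted, was 438.2 and 592 CPM, read in every cell.

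Many genes of the red cell membrane had reads almost only in cluster 11. Of 25 measured, 15 were at least 2-fold higher in cluster 11 and 1 lower, and 12 were higher in each sorted group, among them Ermap, Ank1, Tspo2 and Cldn13. Beside the markers, Aqp1, a water channel, had 20.9 and 0.155 CPM, and the skeleton proteins Add2 (beta-adducin) 91.04 and 1.83 and Sptb (beta-spectrin) 17.3 and 1.42. Surface proteins of blood groups followed the same order: Rhag, a subunit of the Rh complex, at 95.45 and 13.1, Rhd at 44.9 and 6.31, and Slc14a1, the urea transporter of the Kidd group, at 86.2 and 7.51. Rhag was read in 24 of 29 and 14 of 52 cells. Other skeleton genes were not higher in cluster 11: Epb41, which encodes the red cell protein 4.1R, had 94.5 and 120.7 CPM, Add1 (alpha-adducin) 266.8 and 268.2, and Tmod3 89.9 and 108.2.

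The exception was Kel, the endopeptidase of the Kell blood group, with 46.5 CPM in cluster 11 and 272.7 in cluster 10. Its medians per cell were 20.99 and 183.3 in E11.5 G2VInt and 37.8 and 143.97 in E11, but 46.4 and 0 in G2VLo. Its highest cell had 208.6 CPM in cluster 11 and 1878 in cluster 10, and 20 cells of cluster 10 lay above all of cluster 11. In G2VLo the order of the medians was thus the other way.

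Of 15 measured genes listed under erythroid metabolism, 5 were at least 2-fold higher and 0 lower (median 0.62). They were Car2, Pklr, Smim1, Rhd and Tspo2, of which Smim1 and Rhd encode blood group proteins and Rhd and Tspo2 are counted in the membrane list too. Car2, carbonic anhydrase 2, had 1312 and 361.3 CPM, and Smim1, of the Vel blood group, 171.3 and 42.45. Car1, its relative and an early erythroid gene, went the other way at 160 and 204.7 CPM. Per length, Pklr stood at 7.18 RPKM in cluster 11 beside 227.9 RPKM of Pkm, the pyruvate kinase of other tissues, which was 197.98 RPKM in cluster 10. Pkm was thus the main pyruvate kinase messenger of both clusters.

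Globin messengers were scarce for an erythroid cluster. Of 14 entries, 3 were measured. At E11 only 1 was measured, a globin that is not among these 3, with a log2 ratio of -5.70. Hbb-bs, an adult beta globin, had 48.9 CPM against 1.54, but 1 cell held 86.7% of its reads in cluster 11. Hbb-bh1, an embryonic beta-like globin, had 21.2 and 9.84 CPM. Hbb-bt, the other adult beta globin, was level at 18.001 and 17.3, but 1 cell held 50.1% of its reads in cluster 11. Hbb-bs, Hbb-bh1 and Hbb-bt did not meet the limits at E11, where their log2 ratios were 5.42, 0.72 and -1.95. Reads that fit both adult beta globins may be split or lost. Hbb-y, the embryonic epsilon-like globin, had 1.18 and 19.4 CPM and did not meet the limits. Hba-a1 had 6.44 and 0.646 CPM, but it and Hba-a2 are near-identical copies, so their reads may be split or lost. All globins summed to between 0.424 and 1073 CPM per cell in cluster 11 (median 28.1) and between 0 and 404.4 in cluster 10 (median 5.69). The clusters overlap, and in no cell did globins reach the share that they have in hemoglobin-filled erythroblasts, where they dominate the messenger pool.

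Of 17 measured genes of heme synthesis, 8 were at least 2-fold higher in cluster 11 and 1 lower (median 0.97), and 5 of the 8 held in each sorted group. Alad, the second enzyme of the pathway, had 751 CPM against 121.2, with 120.2 to 1476 per cell against 0 to 657. All 29 cells of cluster 11 lay above the median of cluster 10, and 15 above all of its cells. Cpox had 319.2 and 56.1 CPM, Uros 40.15 and 14.05, Fech, which inserts the iron, 252.8 and 74.6, and Tmem14c, which carries a precursor within mitochondria, 991 and 347.4. The first step stood apart. Alas2, its erythroid enzyme, had only 12.9 and 1.69 CPM, with 45.9% of the reads of cluster 11 in 1 cell, and Alas1, the enzyme of all tissues, was lower in cluster 11 (13.3 and 30.4). Per length they came to 5.35 (Alas2) and 2.16 RPKM (Alas1) in cluster 11 and to 0.704 and 4.92 RPKM in cluster 10.

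Iron uptake and cluster assembly genes followed with smaller ratios. Of 18 measured, 6 were at least 2-fold higher and 0 lower (median 0.47). Tfrc, the transferrin receptor, had 212.7 and 95.5 CPM, with 44.5 to 593 per cell against 0 to 462.97. Steap3, the reductase of its endosome, had 267.4 and 98.95, Slc11a2, which takes the iron out of the endosome, 117.1 and 39.4, and the iron-sulfur factor Glrx5 568.1 and 223.9. Slc11a2 did not hold in G2VLo, where its log2 ratio was -0.29. Slc40a1, the exporter ferroportin, had 21.2 and 8.30 CPM, but a log2 ratio of 0.21 at E11. The ferritins Fth1 (1328 and 1182) and Ftl1 (126.2 and 160.7) were nearly level.

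**Figure D4:**
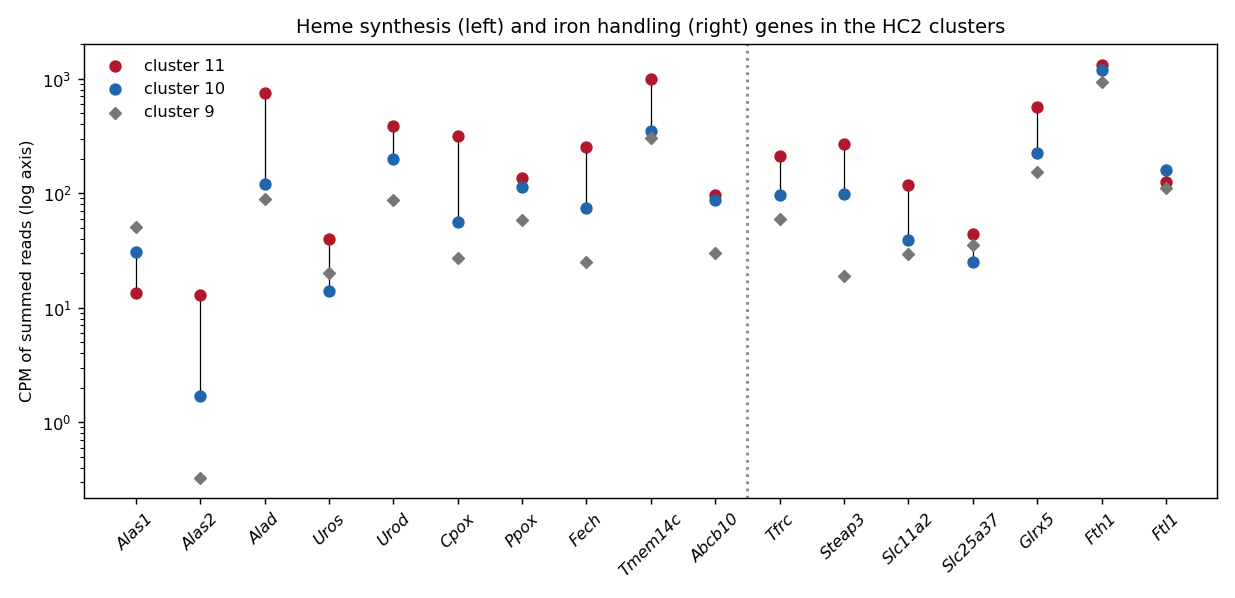
Points give the CPM of summed reads of 17 heme and iron genes on a log axis in clusters 11 (red), 10 (blue) and 9 (grey diamonds), with a line from cluster 11 to cluster 10. Red lies above blue from Alas2 to Abcb10 and below it for Alas1 and Ftl1.

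In erythropoietin signalling only the receptor and the adaptor Gab1 were at least 2-fold higher, of 10 measured genes, and Pim1 was lower (median 0.14). At E11 the list, then with 12 measured genes, stood the other way, with 2 higher, 4 lower and a median of -0.59. Of all genes measured at E11, 12.6% were at least 2-fold higher and 17.6% lower. Epor had 158.5 CPM (155.2 to 161.9) against 46.45 (44.95 to 47.997). It was read in all 29 cells of cluster 11 (up to 317.3 CPM, median 151.5) and in 28 of 52 of cluster 10 (0 to 289.2, median 12.5). Gab1 had 28.7 and 11.48 CPM, but a log2 ratio of -0.69 in G2VLo, and with per-cell means (0.97) or thinned cells (0.79) it was under 2-fold. Jak2, the kinase bound to the receptor, had 49.4 and 33.8, Stat5a 177.1 and 123.1, and Stat5b 82.5 and 106.9. The target and survival kinase Pim1 had 3.40 and 18.8 CPM, and Bcl2l1, the survival protein BCL-XL, 43.4 and 83.1.

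Granule genes of mast cells were far lower in cluster 11. Of 8 measured (of 21 listed), 6 were at least 2-fold lower in cluster 11 and 0 higher (median -2.87). Among them Cpa3, Hdc and Serpinb1a had under 10 CPM in cluster 11 and so were measured only through cluster 10. Cpa3, carboxypeptidase A3 (chromosome 3, 20215620 to 20242181, minus strand), had 2.17 CPM against 417.6. Its median per cell in cluster 10 was 129.4 in E11.5 G2VInt, 94.35 in E11 and 9.95 in G2VLo, with highest cells of 5342, 5290 and 412.05 CPM. In cluster 11 the median was 0 in all 3, and 1 cell (54.98 CPM) held 94.02% of its reads. Hdc, the enzyme that makes histamine, had 6.53 and 806 CPM, with highest cells of 95.4 and 6161. Its median per cell in cluster 10 was 239.1 in E11.5 G2VInt, 485.3 in E11 and 0 in G2VLo, where 3 of 7 cells had a read when all reads were counted. Slc18a2, which loads histamine into granules, had 14.8 and 178.5, Srgn, the core of the granule proteoglycan, 195.1 and 860.4, and Serpinb1a, a protease inhibitor, 2.29 and 63.15. At equal depth, Cpa3 was read in 6.90% of cells of cluster 11 and 71.15% of cluster 10, against 2.94% and 1.85% in endothelial clusters 1 and 2 and 30.2% in cluster 9. Cpa3 and Hdc varied widely within cluster 10, so a few cells carry much of these sums: the highest cell held 43.5% of the Cpa3 and 26.2% of the Hdc reads.

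Receptors followed. Of 15 measured, 8 were at least 2-fold lower in cluster 11 and 0 higher (median -1.72). Csf2rb, the beta chain shared by the receptors of IL-3, IL-5 and GM-CSF, had 1.55 and 217.1 CPM, and its near copy Csf2rb2, the second beta chain of the IL-3 receptor, had 1 read in cluster 11 (0.0185 CPM, interval 0.000468 to 0.103) against 39.6 (38.2 to 41.02). Reads that fit both copies may be split between them. Il3ra, the alpha chain, had 8.23 and 31.7. Il1rl1, the receptor of IL-33, had 3.57 and 53.03, Fcer1g, the signalling chain of Fc receptors, 22.4 and 320, and Itgb7, an integrin by which mast cell progenitors reach tissues, 18.2 and 234. Cd69 had 5.13 and 72.04 CPM but a log2 ratio of only -0.23 in E11. Kinases downstream were closer, with Btk at 189.1 and 178.4, Lyn at 102.9 and 86.8 and Syk at 78.35 and 133.9.

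Among enzymes of lipid mediators, 3 of 5 measured were at least 2-fold lower in cluster 11. Alox5ap, which hands arachidonic acid to 5-lipoxygenase, had 9.71 and 107.96 CPM, Ptgs1, a cyclooxygenase, 22.2 and 121.6, and Alox5 73.6 and 175.9. Lta4h was level (179.3 and 172.8). Of 10 measured transcription factors of the mast cell and basophil list, 6 were at least 2-fold lower and 0 higher (median -1.76). Beside Gata2 these were Hes1, a target of Notch (0.167 and 53.9 CPM), Id2 (2.09 and 82.4), Spi1, which encodes PU.1 (30.4 and 163.96), Meis1 (46.2 and 234) and Fli1 (46.8 and 106.2). Myb was level (240 and 237.1). Mitf, the factor that mature mast cells need, had 0.555 and 3.68 CPM and did not meet the limits.

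Of 20 measured genes shared by all leukocytes, 13 were at least 2-fold lower in cluster 11 and 0 higher (median -1.67). Ptprc, which encodes CD45, had 5.38 and 195.5 CPM, Cd53, a tetraspanin, 0.204 and 271, Cd52 0.574 and 52.2 and Coro1a, an actin regulator, 263.6 and 1598. Tyrobp, an adaptor of myeloid receptors, had 8.68 and 483 CPM. No cell of cluster 11 exceeded 69.9 CPM of it, while 35 of 52 cells of cluster 10 did. Early myeloid genes were at least 2-fold lower for 3 of 4, and Mpo, the neutrophil enzyme, had 30.7 and 714 CPM beside 3300 in cluster 9. Of 13 measured megakaryocyte genes 1 was at least 2-fold higher and 2 lower (median -0.43), and Itga2b, the integrin CD41, was level (254.1 and 259.1). Lymphoid genes were lower for 4 of 5, macrophage genes for 3 of 3, and of mesenchymal genes only Pdgfrb was measured (2 reads, or 0.0370 CPM with an interval of 0.00448 to 0.134, against 43.4).

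Stem cell genes were mostly lower in cluster 11. Of 13 measured, 8 were at least 2-fold lower and 1, Mllt3, higher (52.1 and 19.3 CPM; median of the list -2.01). Cd34 had 6.51 and 301.6, Angpt1 2.66 and 104.6, Hmga2 16.02 and 94.1 and Erg, an ETS factor, 0.352 and 17.97. Cd27 was near 0 in both (0.296 and 1.38 CPM). Of 9 endothelial genes 5 were lower and 0 higher (median -1.33), among them Pecam1, which encodes the sorted CD31 (52.99 and 132.96 CPM), and Tie1 (7.49 and 53.8). A single G2VLo cell of cluster 10 (its replicate 60) held 78.1% of the endothelial list's summed CPM in its group, with 7616 CPM of the 23 genes against a median of 445.8, and also the highest mitochondrial share, 12.6%. With it, 15 of 17 measured endothelial genes were at least 2-fold lower in G2VLo (median -4.84), and without it 3 of 6 (median -1.90). Of all genes measured in G2VLo with this cell, 19.5% were at least 2-fold lower. Its blood genes included 314.9 CPM of Gata1 and 198.5 of Hdc. Without it the medians over all cells were 2.67 for erythroid membrane, -2.87 for mast granule and -1.73 for mast receptor genes. The stem cell median moved from -2.01 to -1.66.

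Cells of cluster 11 had reads of more cell division genes than many cells of cluster 10. At equal depth, cells of cluster 11 had a read of 22 to 30 of 30 G2 and M phase genes (median 28), against 2 to 30 (median 20) in cluster 10, where 20 of 52 cells had under 15. Of 30 S phase genes they had 25 to 30 (median 29) against 8 to 30 (median 25.5), with 9 cells of cluster 10 under 15. Cluster 9 was close to cluster 11, with medians of 28 and 28. The cells of cluster 10 with few such genes came from all 3 sorted groups for G2 and M (10 of 23 in E11.5 G2VInt, 8 of 20 in E11, 2 of 7 in G2VLo). In summed reads over all cells the difference was small in size but mostly in 1 direction. Of 30 G2 and M phase genes 2, and of 30 S phase genes 3, were at least 2-fold higher (medians 0.53 and 0.49), beside 5.32% of all measured genes. In each list 29 of 30 genes had a log2 ratio above 0, while the median over all measured genes was 0.02. In G2VLo these were 20 and 21 of 30. At E11 the difference was larger, with 12 and 7 of 30 at least 2-fold higher (medians 0.90 and 0.70), beside 12.6% of all genes measured there. In G2VLo the medians were 0.22 and 0.27, and 0.03 and 0.16 without its replicate 60. S phase genes with a read per cell had medians of 27.5 and 27 in G2VLo. Ccne1, which encodes cyclin E1 and opens S phase, stood out with 213.2 and 29.8 CPM, and medians per cell of 176.3 and 0.524. Tk1 had 173.4 and 74.4, and Myc 480.5 and 215.5.

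**Figure D5:**
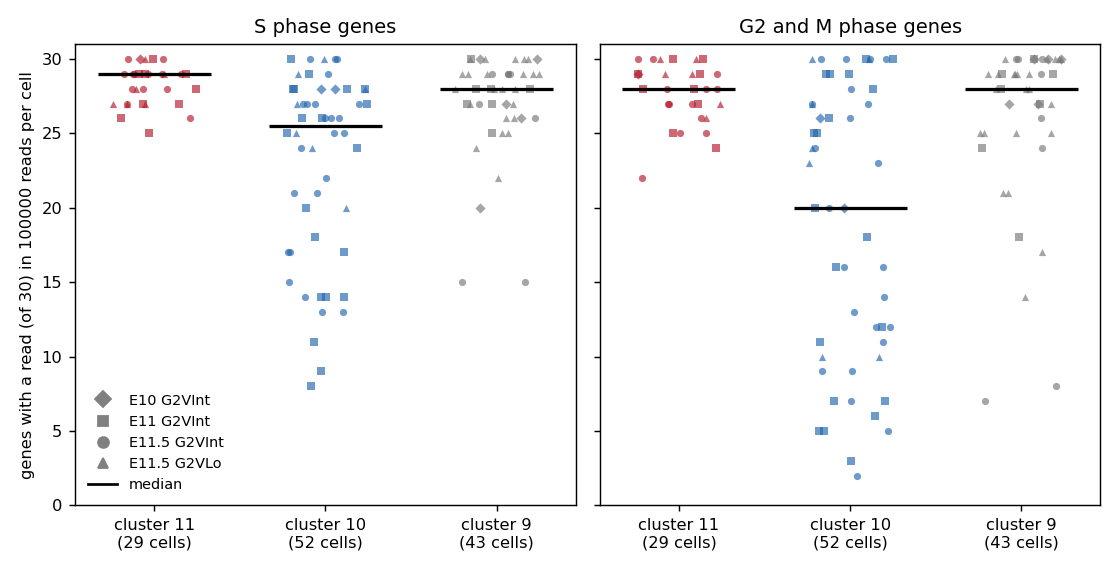
Each point is 1 cell, its height the number of 30 S phase (left) or 30 G2 and M phase genes (right) with a read among 100000 reads, its shape the sorted group, with black bars at medians. Cells of cluster 11 lie at 22 or more, those of cluster 10 spread from 2 to 30 for G2 and M genes, and those of cluster 9 centre on 28.

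Of 13 measured D cyclins, kinase inhibitors and related genes, 6 were at least 2-fold lower and 1, Myc, higher (median -0.44), with 4 of 12 lower and a median of -0.11 in E11.5 G2VInt. Cdkn1c, which encodes p57, had 2.09 and 147.3 CPM, but its median cell was low in both clusters (1.72 and 4.18 CPM), and 21 cells of cluster 10 lay above the highest cell of cluster 11 (30.3 CPM), up to 1514. Cdkn1a, which encodes p21, had 18.3 and 95.05 CPM. Cdkn2d had 39.3 and 102.7. Of 14 immediate-early and heat shock genes 6 were at least 2-fold lower (median -0.43), with Fos at 40.9 and 242.7 CPM and Dusp1 at 19.35 and 186.98. That count was 10 of 14 in G2VLo (median -2.52), where 19.5% of all measured genes were at least 2-fold lower. Of 14 housekeeping genes only B2m, which encodes a chain of MHC class I, was at least 2-fold lower (211.4 and 585 CPM), and the median was 0.06.

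Within E11.5 G2VInt alone (13 and 23 cells) the order of the lists was the same for the main groups. Erythroid membrane genes were at least 2-fold higher for 14 of 24 and lower for 1 (median 1.76), heme genes for 7 of 16 and 0 (0.87), and iron genes for 7 of 18 and 0 (0.58). Mast granule genes were lower for 6 of 8 (-2.75), mast receptors for 8 of 15 (-1.53) and pan-leukocyte genes for 14 of 20 (-1.39). Erythroid transcription factors came closer to level, with 5 of 18 higher, 2 lower and a median of 0.08. At E11 the corresponding medians were 2.22 for membrane, 1.25 for heme, 0.30 for iron, -2.98 for granule, -1.98 for receptor and -2.11 for pan-leukocyte genes. In G2VLo the mast receptor median was lower, at -4.11 over 16 genes, and -3.30 over 15 without the endothelium-rich cell. Differences between the days or gates were not tested.

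Over all genes, 764 measured ones were lower in cluster 11, and fewer higher, with the same direction by 1.5-fold or more in each sorted group and in the mean of the cells. The genes named next stand in no list. Among those with the highest ratios were Prss50, a serine protease (81.05 and 1.02 CPM), Ddah1, which breaks down an inhibitor of nitric oxide synthase (54.4 and 1.56), Slc25a21, a mitochondrial carrier (32.2 and 0.852), Sphk1, which makes sphingosine 1-phosphate (32.1 and 0.194), Sdc1, a heparan sulfate proteoglycan (27.25 and 0.904), and Tnfaip2 (95.9 and 6.86). Others were Fmo1 (19.9 and 0.168), Mrap, the partner of the ACTH receptor (28.95 and 2.04), Fgf13 (25.8 and 0.736) and Slc22a4, a transporter of ergothioneine (15.97 and 1.15). Fmo1 and Ddah1 were also read in endothelial cluster 1 (120.6 and 136.1 CPM), so they mark cluster 11 only against cluster 10. Among the lowest were Cd3g, a chain of the T cell receptor complex, with 1 read in cluster 11 (0.0185 CPM, 0.000468 to 0.103) against 56.2 CPM, Fgf3 likewise with 1 read against 34.1 CPM, Rgs1 (0.0555 and 83.5), Gpr183, an oxysterol receptor (0.370 and 243.01), and Tespa1 (0.167 and 73.1). Cd3g had 4.54 CPM in cluster 9 and Fgf3 2.65, whereas Rgs1 and Tespa1 were as high there as in cluster 10 or higher (122.2 and 146.98). P2ry10 and Mzb1 had no read in cluster 11 and were at least 376.8-fold and 356.8-fold lower.

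The authors' clustering of all cells kept all 29 cells of cluster 11 together but moved 7 cells of cluster 10 into it (3 of E11.5 G2VInt and 4 of E11), 41 stayed in cluster 10 and 4 went to cluster 8. The 7 cells had a read of 3 to 8 of the 12 erythroid markers (median 6), 5 of them with only that list at 3 or more and 2 with both. Klf1 stood at 460.2 CPM in them and Epor at 136.1, near the 452.4 and 158.5 of cluster 11, and Ermap at 118.99, between the clusters. Ank1 and Cldn13 had no read in the 7 cells. The cell with most of the Tspo2 reads of cluster 10 was among them. With only cells of the same number in both clusterings, the log2 ratio of Ermap was 7.89 in place of 3.48. That of Tspo2 was 10.5 in place of 5.85. In summed reads Gata2 (374.2 CPM), Ptprc (88.65), Hdc (95.1), Slc18a2 (75.2) and Cdkn1c (115.2) were far above cluster 11. Cpa3 (1.98), Tyrobp (19.9) and Cd34 (4.04) were low. The mast marker sum of the 7 cells was 184.5 CPM (17.6 to 809 per cell), against 27.1 in cluster 11. A single cell had 492.7 CPM of Hdc and 598.2 of Cdkn1c, and Cdkn1c was as low as 0.605 in another. The 7 cells thus had erythroid factors together with Gata2 and, in part, genes of histamine. At E10 cluster 11 had a single cell, with 597 CPM of Klf1, 558 of Gata1 and 19.4 of Ank1 but no read of the other 4 markers. The 2 cells of cluster 10 at that stage had 0 and 400.03 CPM of Gata1, and 0 and 24.6 of Cpa3.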

How the data were processed

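Messenger RNA was sequenced in sorted single cells; each of the 1087 samples is 1 cell. The values are read counts per Ensembl gene, as deposited by the authors; per the submitters' processing notes they used HTSeq 0.6.0 and GRCm38, and the aligner, annotation, strand setting and filters are not given in the sources used here. Per the labels' protocols libraries were made with Nextera XT; no molecular identifiers are named, so PCR copies were counted, and intervals and limits of 0 cover counting error only. Columns of 359 cells were used (all of HC2 and of E11.5 G2VInt, none identical to another), and 728 were not used here. Symbols and positions came from GENCODE M21; 849 of 46078 genes had no symbol and held 0.0852% of the reads.

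Counts were summed over the cells of a cluster and scaled to CPM (Python 3.11.15, numpy 2.4.6, pandas 2.3.3), with exact Poisson 95% intervals (scipy 1.17.1). RPKM also divides by exon length. For shares and counts of cells with a read, each cell was thinned to 100000 reads unless all reads are named. A summed count of 0 was set to 3. No test was run, no doublet was removed, and no p-value is given, since a sorted group is 1 sample. The steps were tested on simulated data. TMM factors came from edgeR 4.0.16 in R 4.3.3 as an alternative.

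The members and the 25 gene lists (493 entries, of which 5 were not matched) were chosen with earlier results of these data known. Named genes are the reporter and sorted genes, the 5 markers, up to 6 members of each erythroid or mast cell list and up to 4 of each other list by size of ratio, and the 15 highest and 15 lowest outside the lists with a ratio of 1.5 or more in the same direction in the mean of per-cell CPM and in each of 3 sorted groups. Pseudogenes, unnamed, mitochondrial, ribosomal protein and certain sex-linked genes were passed over. Some of those that met the rule are not named, and further list members and genes described cell by cell were chosen after their values were seen. Promoter sequences are from RefSeq (GRCm38.p6): 208 of 266 and 587 of 764 genes were matched. Some genes of the lists are not reported here.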

Additional observations from a re-analysis of the deposited data

Results flagged for a closer look

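Of 18 checks for a cell far from the rest of its cluster in a sorted group of 4 to 10 cells, 3 found one; chance gives about 1 in 20 for values without steps, and marker counts move in steps of 1. Among the 9 cells of cluster 11 at E11, the lowest had a read of 4 of the 12 erythroid markers and the next 7, and the highest had 2 of the 12 mast and basophil markers and the next 1. Among the 7 cells of cluster 10 in E11.5 G2VLo, the lowest had 4970 genes with a read among 100000 reads and the next 6785.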

How the results depend on the processing

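The direction of the 3 list medians below held under every alternative run, while counts and sizes moved. Genes at least 2-fold higher in cluster 11 were 498 of 9359 measured (5.32%), but 1120 with a limit of 1 CPM and no share of cells (7.94%), 4.67% of 5058 with 50 CPM, 1206 in E11 alone (12.6%), 1139 in G2VLo alone (12.6%) and 754 with only cells of the same number in both clusterings (8.04%). Genes lower were 1234 (13.2%), but 3176 at 1 CPM (22.5%) and 9.02% of 5058 at 50 CPM. Within E11.5 G2VInt the 667 higher genes (7.14%) became 1063 with thinned cells (11.2%), 1486 at 1 CPM (10.8%) and 5.55% of 5011 at 50 CPM, and the 1415 lower ones (15.1%) 3201 (23.3%) and 480 (9.58%) at these limits. The erythroid membrane median of 2.58 was 0.67 at 50 CPM, 1.76 in E11.5 G2VInt, 2.22 in E11, 1.84 in G2VLo, 1.52 as the mean of the 3 groups with a pseudocount of 1 CPM, 3.10 with the same number in both clusterings and 3.09 with the clusters of the clustering of all cells. The mast granule median of -2.87 was -3.05 with per-cell means, -4.19 at 1 and at 50 CPM, -2.98 in E11, -3.12 and -2.25 with these last 2 choices of cells, and the mast receptor median of -1.72 was -3.68 at 1 CPM and -4.11 in G2VLo (-3.30 there without the endothelium-rich cell). Causes beyond the limits themselves were not tested. Of the named genes at least 2-fold apart, 5 turned direction in 1 sorted group: Slc11a2 (-0.29), Gab1 (-0.69), Ndst2 (0.21) and Rrm2 (-0.19) in G2VLo, and Rb1 (0.14) in E11.5 G2VInt. Of 2014 values of named genes under alternatives, 2003 kept their sign. TMM factors shifted all log2 ratios by 0.04. Leaving out all G2VLo cells, or the endothelium-rich one, was chosen after seeing the data and gave 552 and 497 higher and 1291 and 1217 lower genes. The clusters of the clustering of all cells were taken without 3 cells of other classes, not used here. No paired analysis was possible because no label links a cell of one cluster to a cell of the other; ratios within each sorted group stand above. Depth limits genes under about 10 CPM, above all in the shallow G2VLo cells.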
